A study of Lissachatina fulica and Mizuhopecten yessoensis with 12 samples.

Results

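The genes of the contractile machinery and of the muscle cytoskeleton were compared between the atrium and the ventricle of 2 molluscan hearts, those of the adult scallop Mizuhopecten yessoensis, a bivalve, and of the adult giant African snail Lissachatina fulica, a gastropod. Members were the rows of the 2 deposited tables whose gene symbol matched a fixed pattern of sarcomere and muscle cytoskeleton names. The pattern found 43 of 6081 listed rows, 24 of 4195 in scallop and 19 of 1886 in snail. Matching by letters also caught 9 rows that are no muscle structural genes: PRMT5 and PRMT8 (arginine methyltransferases), 6 rows named TPMT (thiopurine methyltransferase) and TNNI3K (a protein kinase that binds cardiac troponin I in mammals). They are counted with the rest and described apart. The other 34 rows are called rows with a muscle symbol here, though some of their names, among them ACTB, CAPZA2, CAPZB, MYL6 and mlc-4, are not particular to muscle. Each chamber of each species had 3 libraries, all from wild-type animals and made from poly-A selected RNA of the whole chamber. The labels give no pooling and do not say whether replicates came from separate animals, so a p-value covers the spread among the libraries alone, part of which may be technical.

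Muscle shortens when myosin heads on thick filaments pull on thin filaments of actin. In vertebrate heart, calcium starts this through troponin and tropomyosin on the thin filament. In molluscs calcium also acts on the thick filament, since myosin itself is switched on by calcium binding at its light chains, which was worked out in scallop muscle. Molluscan thick filaments are built around a core of paramyosin, and twitchin, a giant relative of titin on these filaments, takes part in the sustained "catch" contraction of bivalve muscle. Myosin light chain kinase phosphorylates the regulatory light chain. Many symbols in these tables come from worm and fly annotation: unc-54 is a muscle myosin heavy chain, unc-15 paramyosin and unc-22 twitchin in Caenorhabditis elegans, mlc-4 is a regulatory myosin light chain there, and Mlc1 and Tm2 are the essential myosin light chain and a tropomyosin of Drosophila. A symbol gives the best-matching name and is no ortholog call, and copies are told apart here by row identifier.

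Levels are normalized counts, that is reads of a gene divided by 1 size factor per library, with no correction for gene length, so levels are compared between chambers and not between genes. Log2 fold changes compare atrium with ventricle (positive where the atrium is higher) on log2(normalized count + 1), and are given with their SE. A row passed the threshold with a limma adjusted p under 0.05 over all tested rows of its table and at least a 2-fold change. Listed rows held 10120508 to 21526834 reads per library in scallop and 606309 to 1165104 in snail. Ventricle 3 of the scallop and atrium 2 of the snail stood closer to the opposite chamber than the other libraries of their groups. Over all tested rows, scallop ventricle 3 lay 38.1% of the way from the other ventricles toward the atria by the median row, and 29.5% of the way over the muscle rows. Snail atrium 2 had a mean correlation of 0.702 with the other atria and 0.661 with the ventricles, on log2 values over tested rows. Results that rest on these libraries are given with and without them.

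In both species most rows were higher in the ventricle, and a small set of copies went the other way. In scallop 18 of 24 rows passed toward the ventricle and 2 toward the atrium, at a median log2 fold change of −1.16. The same call was made for 45.6% of all 3927 tested rows toward the ventricle and 42% toward the atrium, at a median of −1.01. In snail 13 of 18 tested rows passed toward the ventricle and 2 toward the atrium, at a median of −1.31, where 37% and 46.9% of all 1489 tested rows passed and the median of all rows was 1.22. Without the 9 rows of other function the calls were 13 and 1 of 16 in scallop and 12 and 2 of 17 in snail. Without ventricle 3 the scallop counts were 16 and 2, and without atrium 2 the snail counts were 13 and 3. The authors had listed only rows with an unadjusted p under 0.05 and more than a 2-fold change, so the calls are no independent evidence of a difference. By the authors' deposited table, an adjusted p under 0.05 was reached by 17 of 24 scallop rows and 16 of 19 snail rows, against 68.4% and 67.4% of all listed rows. In whole-chamber RNA, fewer muscle cells and less RNA per muscle cell cannot be told apart.

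**Figure D1:**
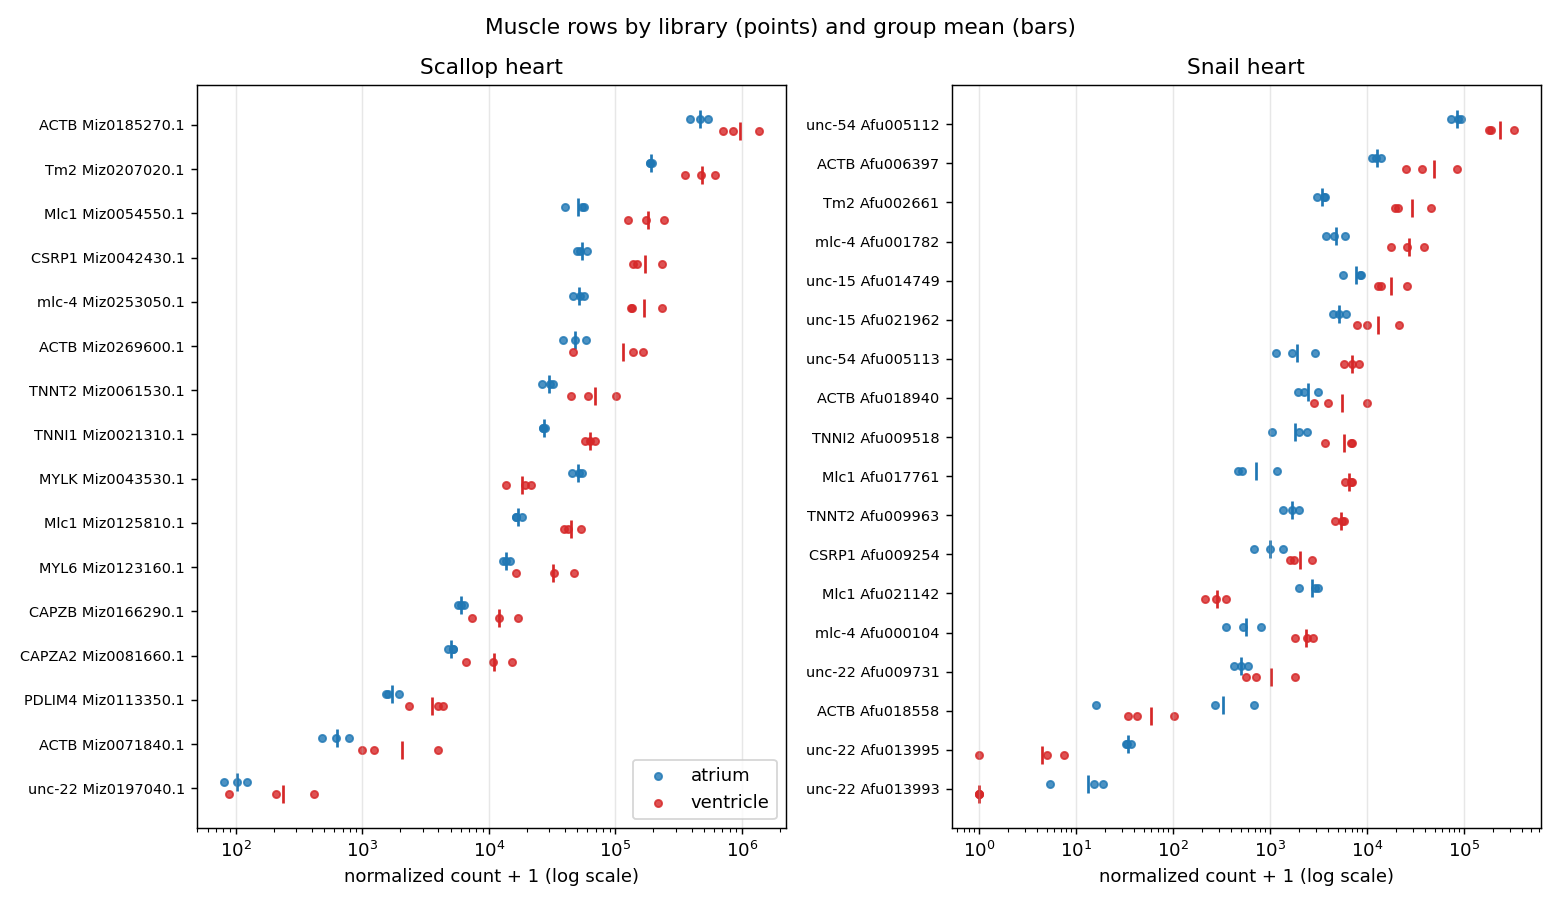
Normalized counts plus 1 on a log axis for the 34 rows with a muscle symbol, in the 3 atrial (blue) and 3 ventricular (red) libraries of each species. Points are libraries (0 reads sit at 1) and vertical bars are group means, which are higher in the ventricle in all rows but MYLK in scallop and Mlc1 Afu021142, ACTB Afu018558, unc-22 Afu013995 and unc-22 Afu013993 in snail.

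The size of these differences in scallop depended on how libraries were scaled, while the snail pattern depended less on it. All 3 other scalings were computed on the listed rows alone, each listed for a chamber difference, ribosomal protein rows included. TMM scaling takes most rows as unchanged, and the ribosomal setting removes any chamber difference of the ribosomal median. Calls lost or turned under them therefore cannot tell which scaling is right. The share of all scallop calls that were atrial was 47.9% as deposited, 73.3% after a further TMM scaling and 96.7% when libraries were set to equal medians of cytosolic ribosomal protein genes. The median log2 fold change of all scallop rows moved from −1.01 to −0.54 and 0.21, and to −0.36 under quantile normalization. Of the 13 scallop rows with a muscle symbol that passed toward the ventricle, 3 kept their call after TMM scaling: Mlc1 Miz0054550.1, mlc-4 and CSRP1. Of these 13 calls 0 were kept under quantile normalization, where unc-22 gained one (−1.65), and 0 under the ribosomal setting, which turned the direction of 9 of the 16 rows. Over all 24 rows of the pattern, 4 of 18 ventricular calls were kept after TMM scaling, with PRMT5 as the fourth. Under quantile normalization 3 were kept, all of them TPMT rows, and 3 rows gained a call. Both atrial calls, MYLK and TNNI3K, remained under all 3 scalings. Each of these scalings moved the median of all scallop rows toward the atrium, so keeping an atrial call under them is a weak check. In snail no tested row turned direction under TMM scaling or quantile normalization. Of 12 ventricular calls of snail rows with a muscle symbol, 10 were kept after TMM scaling and 7 under quantile normalization. Quantile normalization gave a snail atrial share of 34.5% of all calls, against 55.9% as deposited. The ribosomal setting could not be computed for snail, because no ribosomal protein row with a mean of at least 10 was listed.

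**Figure D2:**
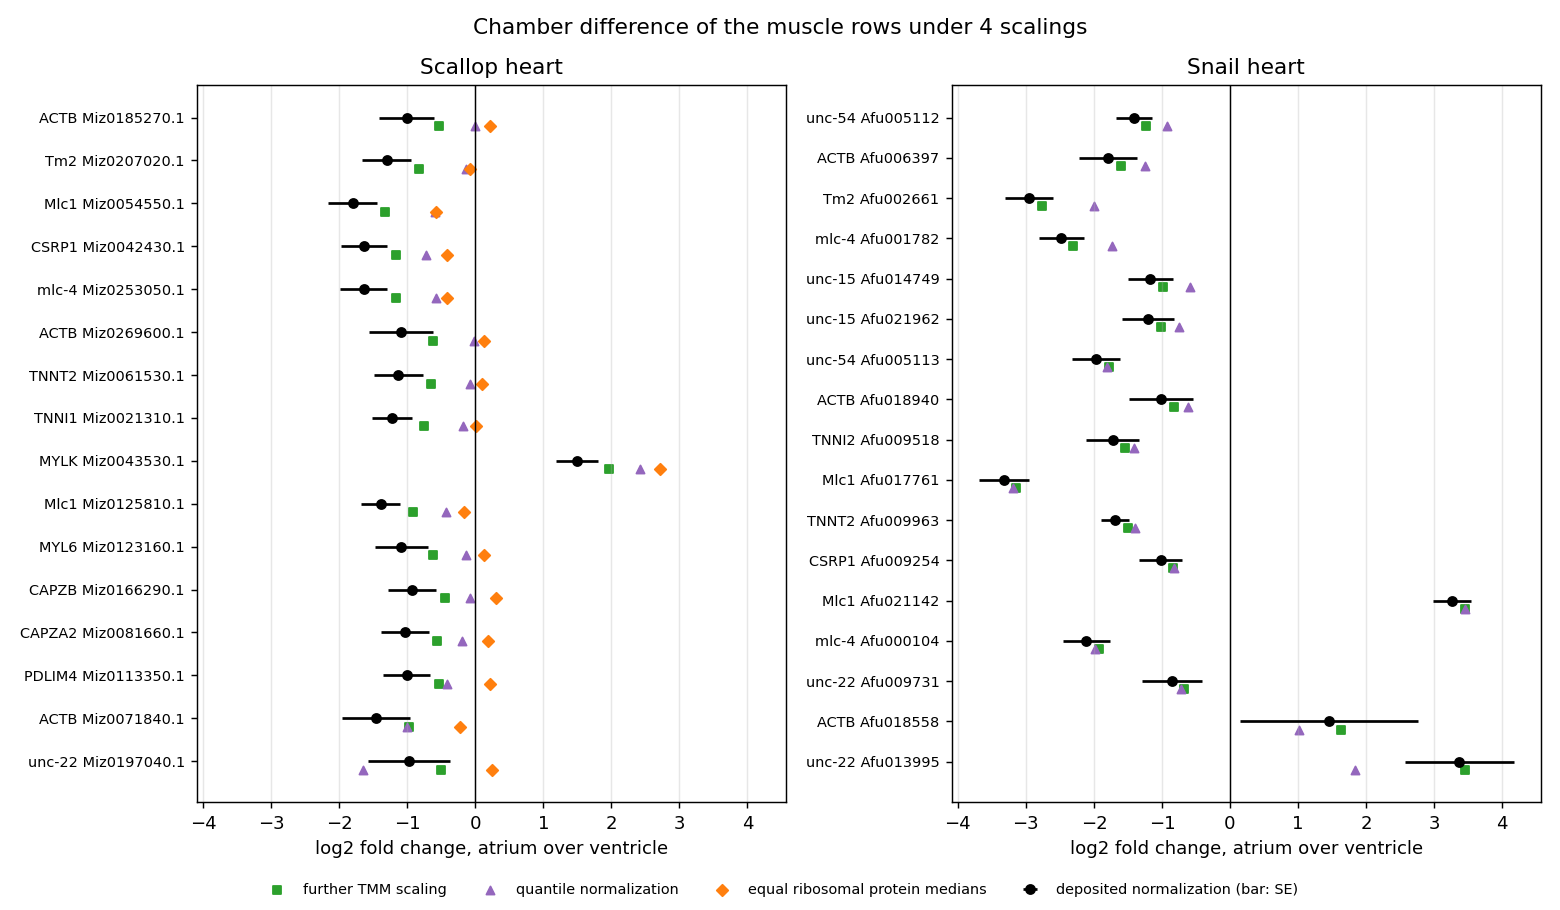
Log2 fold change, atrium over ventricle, of each tested row with a muscle symbol, as deposited (black, with SE) and after 3 other scalings (coloured symbols). In scallop the ventricular rows move toward or past 0, except unc-22 under quantile normalization (−1.65), and MYLK moves from 1.49 as deposited to 2.71 with equal ribosomal medians, while in snail no symbol crosses 0.

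Among scallop thick-filament genes the listed rows were myosin light chains, and all 4 passed toward the ventricle, as did 45.6% of all tested scallop rows. The Mlc1 copy Miz0054550.1, an essential light chain by name, stood at 40094, 56747 and 54389 in the atria and at 242486, 174171 and 124890 in the ventricles. The groups were separated by a wide gap, and the log2 fold change was −1.80 ± 0.36 (limma adjusted p = 0.00393). The less abundant Mlc1 copy Miz0125810.1 stood at 16321, 16314 and 18364 in atria and 53209, 39316 and 42207 in ventricles (−1.39 ± 0.29, limma adjusted p = 0.00479). Its libraries were tightly grouped in atria. The 2 copies kept similar proportions: Miz0054550.1 made up 74.5% ± 3.31 of the listed Mlc1 counts in atria and 79.4% ± 4.08 in ventricles (SD, n = 3), with overlapping libraries.

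The regulatory light chain row mlc-4 (Miz0253050.1) stood at 46438, 56275 and 52890 in atria and 235284, 131976 and 135902 in ventricles. Ventricle 1 was the highest library and no ventricle fell within the atrial range (−1.64 ± 0.35, limma adjusted p = 0.00495). Both Mlc1 copies and mlc-4 passed in every one of the 6 fits that left out 1 library. MYL6, named for the essential light chain of smooth and nonmuscle myosin in vertebrates, was less secure. It stood at 13742, 14610 and 13044 in atria and at 47202, 32815 and 16458 in ventricles (−1.09 ± 0.39, limma adjusted p = 0.0258). Ventricle 3 lay just above the atria, and MYL6 passed in 1 of the 6 fits, that without ventricle 3.

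The kinase of the regulatory light chain went the opposite way. MYLK (Miz0043530.1) stood at 51274, 54798 and 45511 in atria and at 21638, 13794 and 19516 in ventricles. Every atrium stood above the highest ventricle, and the mean was 2.76-fold higher in atria (1.49 ± 0.31, limma adjusted p = 0.00463). MYLK passed in all 6 fits without 1 library and under each of the 3 other scalings, with log2 fold changes of 1.96, 2.42 and 2.71. These scalings moved the median of all scallop rows toward the atrium as well. Of the scallop rows with a muscle symbol MYLK was the 1 that passed toward the atrium.

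Thin-filament regulators were higher in the scallop ventricle, toward which 45.6% of all tested scallop rows passed. Tropomyosin Tm2 (Miz0207020.1), which lies along actin and gates myosin binding, stood at 188124, 188968 and 194561 in atria and 608321, 477947 and 357745 in ventricles. The atria were nearly equal and the ventricles spread widely. Tm2 passed (−1.30 ± 0.36, limma adjusted p = 0.0126), but not without any 1 of the atria, with limma adjusted p-values from 0.0537 to 0.0609.

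Troponin I, named TNNI1 (Miz0021310.1), the inhibitory subunit, stood at 27818, 26985 and 26729 in atria and 68886, 63334 and 57953 in ventricles. Both groups were narrow, and the call (−1.22 ± 0.29, limma adjusted p = 0.0074) held in all 6 fits without 1 library. Troponin T, named TNNT2 (Miz0061530.1), which ties troponin to tropomyosin, stood at 26431, 30520 and 32351 in atria and 100910, 60767 and 44301 in ventricles (−1.13 ± 0.36, limma adjusted p = 0.0187). TNNT2 lost its call on leaving out any 1 atrium, or ventricle 1. The direction of both troponin rows turned under the ribosomal setting, to 0.01 for TNNI1 and 0.10 for TNNT2, whereas that of Tm2 did not (−0.08).

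Actin and its end-capping proteins made the least secure group in scallop. The most abundant ACTB copy, Miz0185270.1, had the highest mean of the whole scallop table. It stood at 390005, 465740 and 544065 in atria and 1365966, 845082 and 706115 in ventricles (−1.01 ± 0.41, limma adjusted p = 0.0394). The call was lost without any 1 of the atria and without ventricle 1 or 2. A second copy, Miz0269600.1, stood at 58522, 38281 and 48379 in atria and 164192, 137010 and 46514 in ventricles (−1.09 ± 0.47, limma adjusted p = 0.0477). Its ventricle 3 lay within the atrial range, and the call likewise held only without ventricle 3.

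The smallest copy, Miz0071840.1, stood at 484.0, 625.6 and 780.5 in atria and 1240, 1000 and 3942 in ventricles (−1.46 ± 0.50, limma adjusted p = 0.0232). Here ventricle 3 was the highest library, and without it the log2 fold change was −0.85 and did not pass. It also did not pass without atrium 1 or atrium 2. Miz0185270.1 held 90.3% ± 2.98 of listed ACTB counts in atria and 89.5% ± 3.69 in ventricles. Near-identical actin copies can share or split reads in counting, so values of single copies are uncertain.

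Capping protein closes the fast-growing end of actin filaments and anchors them at the Z-disc. Its subunit CAPZA2 (Miz0081660.1) stood at 4796, 5177 and 5174 in atria and 15367, 10823 and 6592 in ventricles (−1.03 ± 0.35, limma adjusted p = 0.0219). It passed without ventricle 3 but not without any other library. The partner subunit CAPZB (Miz0166290.1) had 6048, 5702 and 6390 in atria and 16990, 12042 and 7399 in ventricles. It did not reach a 2-fold change (−0.93 ± 0.35, limma adjusted p = 0.0298), and did so without ventricle 3 (−1.24). Both subunits were highest in ventricle 1 and lowest in ventricle 3, an order that ACTB Miz0185270.1, Tm2, TNNT2 and other rows shared.

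The scallop Z-disc and LIM-domain rows were CSRP1 and PDLIM4. CSRP1 (Miz0042430.1), a LIM protein of muscle and actin bundles, stood at 52643, 49988 and 59796 in atria and 147139, 232330 and 137881 in ventricles. No ventricle came near the atria (−1.63 ± 0.34, limma adjusted p = 0.00462), and CSRP1 passed in all 6 fits without 1 library. PDLIM4 (Miz0113350.1), a PDZ and LIM protein of actin fibres, stood at 1547, 1596 and 1971 against 2329, 3970 and 4328 (−1.01 ± 0.34, limma adjusted p = 0.021). PDLIM4 lost its call without atrium 1 or 2 or without ventricle 2 or 3. The twitchin-type row unc-22 (Miz0197040.1) stood at 122.6, 80.2 and 101.8 in atria and 88.5, 206.0 and 417.6 in ventricles, with overlapping groups, and did not pass (−0.97 ± 0.60, limma adjusted p = 0.137; 0.0359 without ventricle 1).

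Ratios between genes within a library do not depend on any scaling by 1 factor per library, though quantile normalization can change them. Each scallop muscle row was therefore set against ACTB Miz0185270.1, the most abundant one, a reference chosen after its values were seen. In 12 of 15 rows the libraries of the 2 chambers overlapped, with differences in log2 ratio between −0.62 and 0.09. The other 3 did not overlap. How often any tested scallop row separated against this reference was not counted, so 3 of 15 cannot be called many or few. MYLK was higher relative to actin in atria, at −2.93, −3.09 and −3.58 against −5.98, −5.94 and −5.18 in ventricles, a difference of 2.50. Mlc1 Miz0054550.1 and mlc-4 were higher relative to actin in ventricles, with differences of −0.79 and −0.63. For 3 libraries against 3 the exact permutation test cannot give a two-sided p below 0.1, which each of these 3 rows reached (0.5 after Benjamini-Hochberg adjustment over 15 rows). Against the sum of all muscle rows the differences were 2.66 for MYLK, −0.63 for Mlc1 Miz0054550.1 and −0.47 for mlc-4, again without overlap, and CAPZB also separated (0.25).

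**Figure D3:**
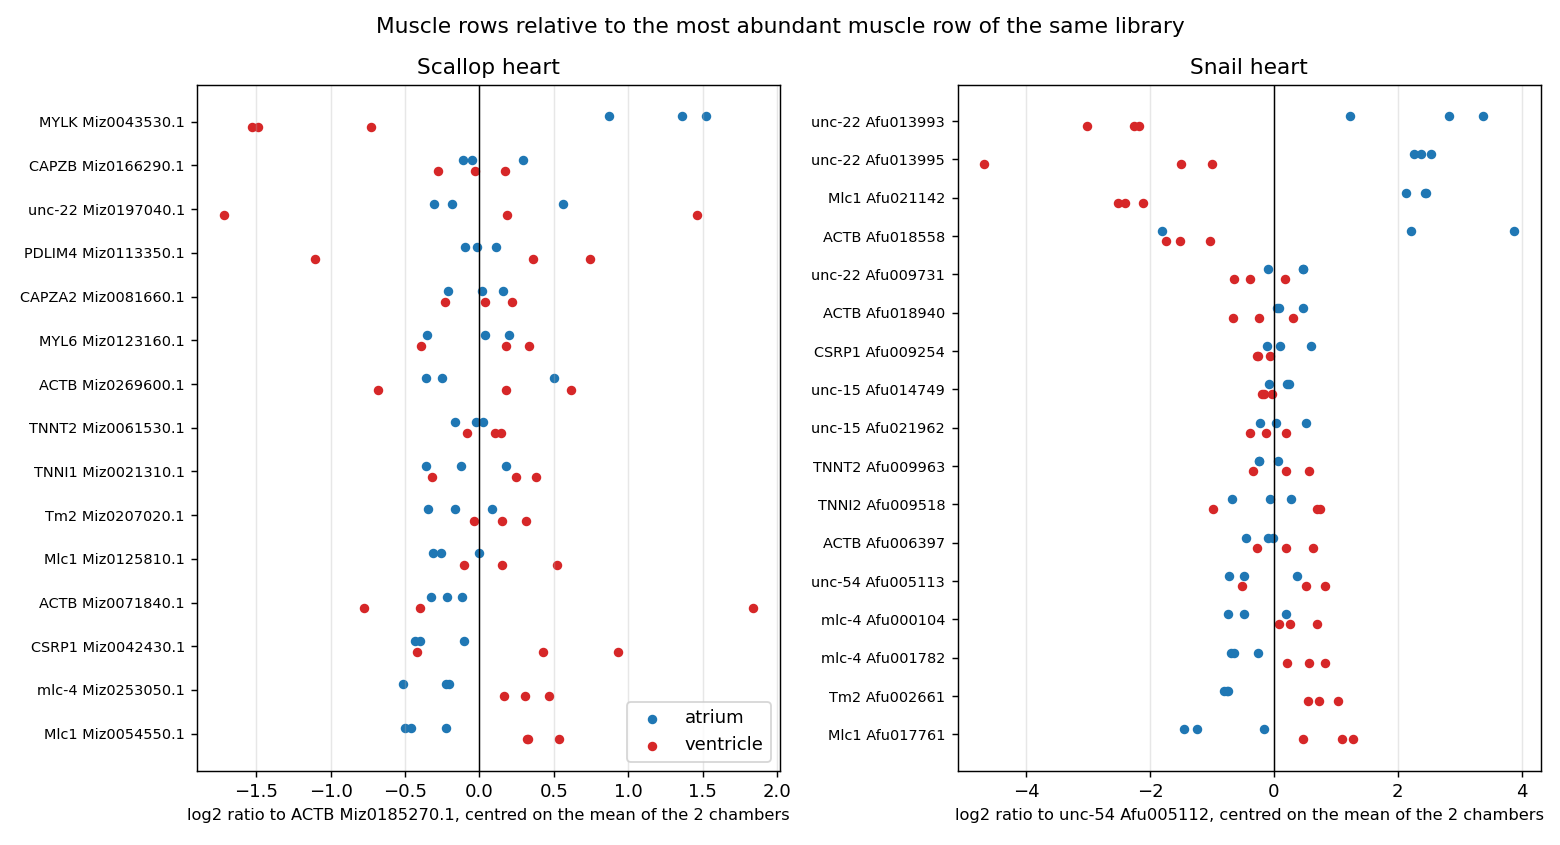
Log2 ratio of each muscle row to the most abundant muscle row of the same library, ACTB Miz0185270.1 in scallop and unc-54 Afu005112 in snail, centred on the mean of the 2 chambers, with atria in blue and ventricles in red. MYLK stands apart in scallop with a difference of 2.50, and Mlc1 Afu021142, Mlc1 Afu017761, Tm2, mlc-4 Afu001782 and 2 unc-22 rows separate in snail.

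In snail the muscle rows took a larger share of listed reads in the ventricle. They held 18.2%, 24.5% and 15% of the reads on listed rows in the atria and 40.8%, 50.5% and 38.3% in the ventricles. The groups did not overlap (19.2% ± 4.83 against 43.2% ± 6.44, SD, n = 3; exact permutation test, two-sided p = 0.1, the smallest possible). The single row unc-54 Afu005112 held 12.1%, 15.2% and 9.62% in the atria and 24.1%, 28.2% and 22.5% in the ventricles. The scallop shares overlapped, at 10.3%, 10.5% and 12.4% in atria and 13%, 11.6% and 14.2% in ventricles (exact permutation test, two-sided p = 0.2). These shares are of the rows the authors listed, not of whole libraries. Each row was listed for a chamber difference, so separation was favoured in advance and the p-values only describe the shares.

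The snail myosin heavy chain and paramyosin rows were all higher in the ventricle, toward which 37% of all tested snail rows passed. The unc-54 row Afu005112 had the highest mean of the snail table, at 92959, 88397 and 74528 in atria and 192818, 328336 and 183428 in ventricles. Ventricle 2 was the highest library by far, and the lowest ventricle still stood above every atrium (−1.41 ± 0.27, limma adjusted p = 0.00451). A second unc-54 row, Afu005113, stood at 1704, 2922 and 1153 in atria and 7068, 5891 and 8264 in ventricles (−1.97 ± 0.35, limma adjusted p = 0.00361). The identifiers of the 2 rows are consecutive, and whether they are separate genes or pieces of 1 gene was not tested. Both passed in all 6 fits without 1 library. Under quantile normalization Afu005113 passed and Afu005112 did not (−0.92).

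The paramyosin row unc-15 Afu014749 stood at 8774, 8559 and 5749 in atria and 14120, 26320 and 13124 in ventricles (−1.17 ± 0.33, limma adjusted p = 0.0159). The other paramyosin row, Afu021962, stood at 4492, 5127 and 6068 and at 10044, 21372 and 7957 (−1.20 ± 0.38, limma adjusted p = 0.0228). Ventricle 2 was again the highest in both, and without it their log2 fold changes were −0.85 and −0.79, under the 2-fold limit. Afu014749 also lost its call without atrium 3 and Afu021962 without atrium 1, and neither passed under quantile normalization.

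The 2 listed copies of the snail essential light chain differed in opposite directions between the chambers. Mlc1 Afu021142 stood at 3131, 2961 and 2020 in atria and at 275.3, 355.3 and 213.6 in ventricles. The lowest atrium was far above the highest ventricle, and the mean was 9.61-fold higher in atria (3.26 ± 0.28, limma adjusted p = 0.00049). Mlc1 Afu017761 did the reverse, at 513.8, 1187 and 471.3 in atria and 7070, 6856 and 5950 in ventricles, 9.15-fold higher in ventricles (−3.32 ± 0.37, limma adjusted p = 0.000805).

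Within the listed Mlc1 counts of each library Afu021142 made up 85.9%, 71.4% and 81.1% in atria and 3.75%, 4.93% and 3.47% in ventricles. The means were 79.5% ± 7.39 and 4.05% ± 0.775 (SD, n = 3). Atrium 2, the atrium closest to the ventricles over all rows, had the lowest atrial share. The 2 copies together stood at 3645, 4148 and 2491 in atria and 7345, 7211 and 6163 in ventricles, so that their sum differed by −1.01 on the log2 scale (ratio of means). Both copies passed in all 6 fits without 1 library, under TMM scaling and under quantile normalization. Reads that match both copies could be assigned to either, since no source used here gives the counting rules.

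**Figure D4:**
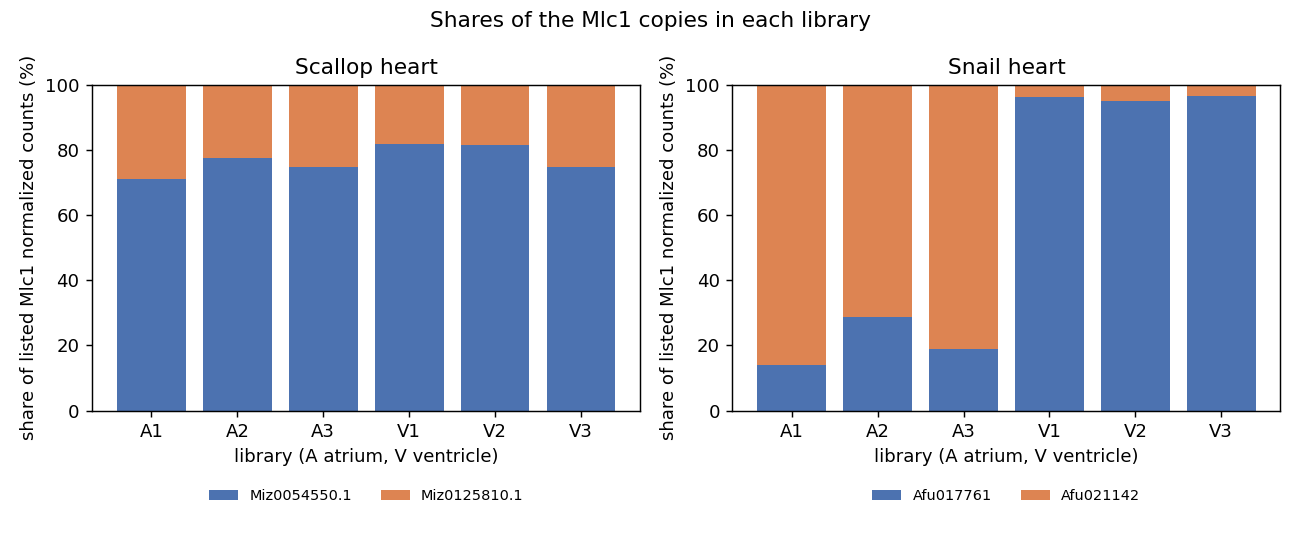
Share of the listed Mlc1 normalized counts held by each of the 2 Mlc1 copies in every library, in percent, for scallop and snail. In scallop Miz0054550.1 holds between 71.1% and 82% in all libraries, and in snail Afu021142 holds 71.4% or more in atria and 4.93% or less in ventricles.

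The regulatory light chain rows of the snail did not divide in this way. The mlc-4 row Afu001782 stood at 4604, 5906 and 3808 in atria and 17836, 38791 and 26028 in ventricles (−2.48 ± 0.33, limma adjusted p = 0.00136). The mlc-4 row Afu000104 stood at 530.6, 807.6 and 355.6 and at 1840, 2779 and 2392 (−2.11 ± 0.34, limma adjusted p = 0.00254). Afu001782 kept 89.7% ± 1.74 of listed mlc-4 counts in atria and 91.8% ± 1.35 in ventricles, with overlapping libraries. Both rows passed in every fit without 1 library.

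Snail thin-filament regulators were higher in the ventricle, tropomyosin most of all. Tm2 (Afu002661) stood at 3681, 3667 and 3072 in atria and 19610, 46402 and 20937 in ventricles, 8.34-fold higher by the means (−2.95 ± 0.35, limma adjusted p = 0.00101). The atria were narrow and the lowest ventricle was far above them. TNNT2 (Afu009963), troponin T, stood at 1688, 2000 and 1359 in atria and 4742, 5580 and 5829 in ventricles (−1.69 ± 0.21, limma adjusted p = 0.00122). TNNI2 (Afu009518), troponin I, stood at 1993, 2401 and 1046 in atria and 7035, 3723 and 6842 in ventricles (−1.72 ± 0.39, limma adjusted p = 0.00795). In TNNI2 ventricle 2 was the lowest ventricle, whereas it was the highest in unc-54 Afu005112, paramyosin, Tm2 and ACTB Afu006397. All 3 regulators passed without each library in turn and under TMM and quantile scaling. Toward the ventricle 37% of all 1489 tested snail rows passed as deposited, 423 rows after TMM scaling and 593 under quantile normalization. How many of all rows passed without each library in turn was not counted.

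Snail actin rows differed among copies. ACTB Afu006397 stood at 11437, 13971 and 12447 in atria and 37236, 85993 and 25613 in ventricles (−1.79 ± 0.43, limma adjusted p = 0.00936). It passed in all 6 fits without 1 library, but not under quantile normalization (−1.25). ACTB Afu018940 stood at 3179, 2246 and 1940 in atria and 4019, 9975 and 2836 in ventricles. Its groups overlapped and it did not pass (−1.01 ± 0.47, limma adjusted p = 0.0749; 0.041 without ventricle 3).

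The third copy, ACTB Afu018558, stood at 273.0, 15.2 and 691.3 in atria and 42.1, 100.8 and 33.6 in ventricles. The 3 atria spanned a wide range and the copy did not pass (1.45 ± 1.31, limma adjusted p = 0.309). Without atrium 2 its log2 fold change was 3.03 (limma adjusted p = 0.00456). The summed counts of 10 listed hemocyte and immune marker rows had the same order among atria, at 3051, 388.2 and 10830, and lay between 264.5 and 466.3 in ventricles. This order was not particular to them. Rows of filtering and uptake epithelium (sums of 1081, 344.3 and 2528) and MYO15A (96.3, 3.8 and 261.9) shared it, whereas the neuronal and connective tissue sums did not. The part of any of these cells in the values of this copy was not tested.

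Twitchin-type rows of the snail also differed among themselves. The most abundant unc-22 row, Afu009731, stood at 423.3, 591.4 and 501.9 in atria and 714.7, 1802 and 573.7 in ventricles, with overlapping groups, and did not pass (−0.85 ± 0.44, limma adjusted p = 0.0977). The unc-22 row Afu013995 was higher in atria, at 36.5, 31.8 and 32.6 against 6.5, 0 and 4.0 (3.37 ± 0.80, limma adjusted p = 0.00914; not called under quantile normalization). It rests on 141 atrial and 9 ventricular reads. The row Afu013993 had 52 reads in the atria and 0 in the ventricles, at least 9.33-fold higher in atria against a limit of 3 reads over the ventricles. Its mean lay below the minimum of 10 and it was not tested. CSRP1 (Afu009254) stood at 997.7, 1355 and 693.3 in atria and 1623, 2738 and 1764 in ventricles (−1.02 ± 0.32, limma adjusted p = 0.0238), and lost its call without atrium 1, atrium 3 or ventricle 2.

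Set against unc-54 Afu005112 within each library, 6 of 17 snail muscle rows separated the chambers. How often any tested snail row separated against this reference was not counted, so 6 of 17 cannot be called many or few. Higher relative to myosin heavy chain in atria were Mlc1 Afu021142 (difference in log2 ratio 4.68) and the unc-22 rows Afu013995 (4.78) and Afu013993 (4.95), the last 2 resting on few reads and set in size by the 1 added to each count. Higher in ventricles were Mlc1 Afu017761 (−1.91), Tm2 (−1.53) and mlc-4 Afu001782 (−1.07). Tm2 stood at −4.66, −4.59 and −4.60 in atria and −3.30, −2.82 and −3.13 in ventricles. The exact permutation test gave each its smallest possible two-sided p of 0.1 (0.283 after Benjamini-Hochberg adjustment over 17 rows). The other 11 rows overlapped between chambers, among them the troponins, paramyosin, actin and CSRP1. Against the sum of all muscle rows the same 6 separated, and unc-15 Afu014749 (0.40) and CSRP1 (0.54) did so too, toward the atria.

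Symbols listed in both species were compared through their chamber differences, using the copy with the highest mean. Of 8 such symbols 2 differed between species by a limma interaction test, near the 23.5% of all 328 shared symbols. Tm2 had log2 fold changes of −1.30 in scallop and −2.95 in snail, a difference of −1.64 ± 0.44 (limma adjusted p = 0.0115). It remained past the threshold without each of the 12 libraries in turn. Mlc1 had −1.80 and −3.32, a difference of −1.52 ± 0.47 (limma adjusted p = 0.0265). With both Mlc1 copies of each species summed the difference was 0.67 in the opposite direction and did not pass (limma adjusted p = 0.271). It also did not pass without scallop atrium 2 or 3, scallop ventricle 2 or 3, snail atrium 1 or 3 or snail ventricle 1 or 2, with limma adjusted p-values from 0.0505 to 0.0794.

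The other shared symbols did not pass. The interaction was −0.84 ± 0.43 for mlc-4 (limma adjusted p = 0.249), −0.77 ± 0.55 for ACTB (0.458) and −0.56 ± 0.38 for TNNT2 (0.433). It was 0.61 ± 0.41 for CSRP1 (0.422), 0.12 ± 0.73 for unc-22 (0.949) and 0.17 ± 0.57 for TPMT (0.949). All 8 symbols had higher ventricular means in both species for the copies used. No difference between the species was shown for these 6, which does not show that they behaved alike.

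**Figure D5:**
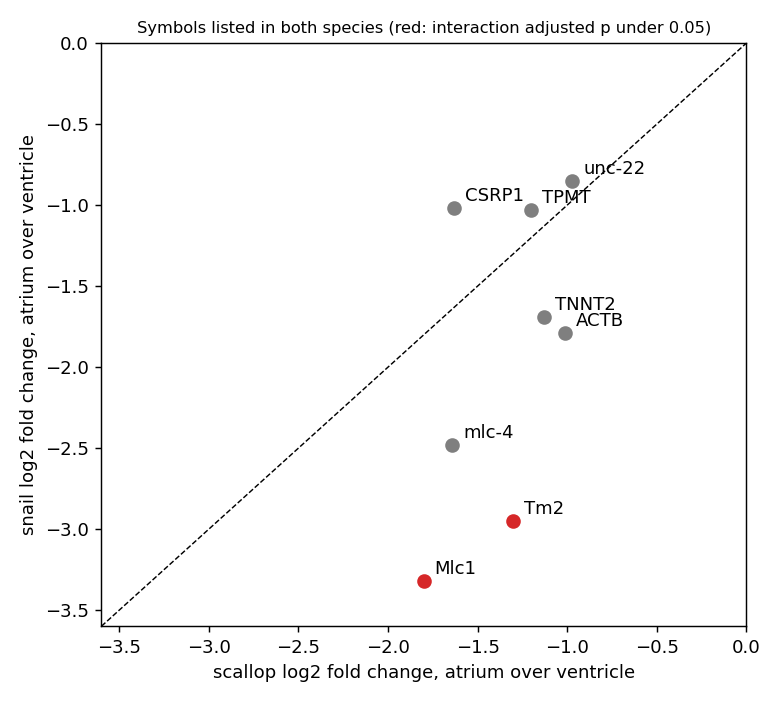
Log2 fold change, atrium over ventricle, in scallop (horizontal) and snail (vertical) for the 8 symbols that both tables list, using the copy with the highest mean. The dashed line marks equal values, and the red points, with an interaction adjusted p under 0.05, are Tm2 and Mlc1, at differences of −1.64 and −1.52.

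The 9 rows of other function mostly lay on the ventricular side. Of all tested rows, 45.6% in scallop and 37% in snail passed toward the ventricle, and 42% and 46.9% toward the atrium. In scallop PRMT5 (−1.48 ± 0.35, limma adjusted p = 0.00783) and PRMT8 (−1.01 ± 0.34, limma adjusted p = 0.022) passed, as did 3 of 5 TPMT rows, while TNNI3K passed toward the atrium. PRMT5 passed in all 6 fits without 1 library and PRMT8 in 1 of them. The 3 TPMT rows passed in 2 (Miz0037240.1), 1 (Miz0161960.1) and 2 (Miz0037250.1) of the 6 fits, and Miz0161960.1 also lost its call with a replicate block. TNNI3K (Miz0195340.1) stood at 752.8, 1221 and 901.6 in atria and 327.4, 388.0 and 630.6 in ventricles (1.12 ± 0.39, limma adjusted p = 0.0237), and lost its call in every fit without 1 library except that without ventricle 3. The single snail TPMT row passed (−1.03 ± 0.29, limma adjusted p = 0.0153), and not without atrium 1 or ventricle 2.

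Cytoskeletal and muscle-related genes outside the name pattern were counted by lists of their roles, and many of them are not particular to muscle. In scallop, where 42% of all tested rows passed toward the atrium and 45.6% toward the ventricle, all 3 rows linking the muscle membrane to the matrix passed toward the atrium. DAG1, dystroglycan, stood at 12950 ± 1610 in atria and 3817 ± 813 in ventricles in its larger copy (1.78 ± 0.30, limma adjusted p = 0.00181), and DTNA, dystrobrevin, at 222.0 ± 6.91 and 61.0 ± 73.3. Of 13 actin turnover and cortex rows 7 passed toward the ventricle and 5 toward the atrium, after leaving out 5 rows caught by letters alone, which is near the shares of all rows. FSCN1, the actin bundler fascin, stood at 13940 ± 1680 against 62990 ± 32100 in ventricles. The Arp2/3 subunits ARPC1A, ARPC3 and ARPC4 and ACTR3B lay on the same side. The spectrins SPTBN5 (7715 ± 1550 against 1743 ± 405) and both SPTBN1 rows were higher in atria. The myogenic factor MYOD1 had 126 reads in atria and 0 in ventricles, at least 30.5-fold higher in atria.

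Both unconventional myosins listed in scallop, MYO15A and MYO7A, passed toward the atrium. In snail 5 of 6 rows of these lists passed, all toward the atrium, as did 46.9% of all tested snail rows. The 6 were 2 SPTBN5 rows, CAMK2G, MYO15A, MYO18B and CRYAB. Those that passed included MYO18B at 635.5 ± 119 against 230.3 ± 37.2 (1.45 ± 0.24, limma adjusted p = 0.00294) and the small heat shock protein CRYAB at 182.0 ± 68.1 against 39.3 ± 4.94 (2.11 ± 0.36, limma adjusted p = 0.00303). MYO15A had 96.3, 3.8 and 261.9 in atria and did not pass (limma adjusted p = 0.106).

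Many marker rows of other cells also passed the threshold, while the sums of some lists overlapped between the chambers. In scallop 42% of all tested rows passed toward the atrium and 45.6% toward the ventricle. Of 25 tested neuronal rows 22 passed toward the atrium and 2 toward the ventricle, and of 21 tested connective tissue rows 15 and 4. Of 15 tested cilia rows 11 passed toward the atrium and 1 toward the ventricle, and of 21 tested rows of filtering and uptake epithelium 15 and 3. Of 9 hemocyte rows 2 passed toward the atrium and 7 toward the ventricle, although their sum was higher in atria. Summed neuronal counts were 20180 to 21960 in atria and 9189 to 9735 in ventricles, and summed connective tissue counts 387500 to 478700 and 218500 to 774400. Summed cilia counts were 4003 to 4215 and 2428 to 3472, hemocyte counts 14790 to 17040 and 7210 to 9194, and epithelial counts 14260 to 24290 and 16280 to 33280. In snail 46.9% of all tested rows passed toward the atrium and 37% toward the ventricle. Of 11 tested connective tissue rows 9 passed toward the atrium and 1 toward the ventricle, of 10 hemocyte rows 7 and 0, of 8 tested neuronal rows 5 and 2, and of 9 tested epithelial rows 5 and 0. The 1 cilia row tested passed toward the ventricle.

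The snail sums were 13310 to 21040 in atria and 5439 to 8897 in ventricles for connective tissue, 388.2 to 10830 and 264.5 to 466.3 for hemocytes, 667.3 to 1024 and 405.8 to 601.2 for neurons, 344.3 to 2528 and 94.1 to 189.6 for epithelium, and 16.6 to 24.3 and 17.1 to 21.5 for cilia. In scallop 1 neuronal, 1 connective tissue and 2 epithelial rows had no read in any ventricle, and in snail 2 neuronal, 1 hemocyte, 1 epithelial and 2 cilia rows. Another snail neuronal row had no read in any atrium. All rows with a muscle symbol had reads in every library, except unc-22 Afu013993 and Afu013995 in snail ventricles. The part of these other cells in the muscle differences was not tested.

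The rows most like the leading muscle row were sought over the 6 libraries of each species by Pearson correlation of log2 values, as a description that the shared chamber difference helps to set. For scallop ACTB Miz0185270.1 these were GRWD1 (r = 0.996), PIH1D1 (0.995), MRPL37 (0.992), TNNT2 (0.991) and RPP30 (0.991). For snail unc-54 Afu005112 they were the tricarboxylic acid cycle enzymes DLST (0.9995) and SUCLA2 (0.997), the carbonic anhydrase CA7 (0.997), DNAJC27 (0.996) and the complex I assembly factor NDUFAF1 (0.995).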

How the data were processed

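Atrial and ventricular libraries of scallop and snail hearts (3 per chamber and species) were analysed from 1 deposited table per species. Library columns, named counts per the file headers, hold a normalized signal: in every library 100% of the deposited values were whole multiples of 1 step (tolerance 0.01 read), so that whole reads and 1 size factor per library were recovered. The authors' deposited log2 fold changes, test scores and p-values are for ventricle over atrium. Per the submitters' processing notes, which give no roles, DESeq2 1.20.0, StringTie 1.3.3b, featureCounts 1.5.0 and HISAT2 2.0.5 were used; build, annotation and strand setting are not given in the sources used here. No sequence was at hand.

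Here limma 3.58.1 under R 4.3.3 was run with its trend option and Benjamini-Hochberg adjustment over all genes tested, on log2(normalized count + 1) for rows with a mean of at least 10 in 6 libraries. This pseudocount understates changes of low rows. The limma fit was tested on simulated data in which a minority of rows changed. Rows here were preselected for a chamber difference, so that test does not check the calls. On recovered reads edgeR called 1392 atrial and 1915 ventricular rows in scallop and 750 and 572 in snail, against 1648 and 1792, and 698 and 551, by limma. Alternatives were edgeR 4.0.16 and DESeq2 1.42.0 on recovered reads, other pseudocounts and filters, 3 scalings, a replicate block and leaving out each library. Members, lists and tests were chosen with earlier results of these data known. Values in every library are given for abundant members, members with large changes, copies with opposite calls and symbols listed in both species; for the rest the rule asked only for ranges. Read depth beyond the listed rows is unknown; floors of 3 reads cover counting error only.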

Additional observations from a re-analysis of the deposited data

Results flagged for a closer look

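The chamber difference of Tm2 and of Mlc1 differed between the 2 species by the limma interaction test. Tm2 differed by −1.64 on the log2 scale, more toward the ventricle in snail (limma adjusted p = 0.0115; ventricular mean higher in both species). Mlc1 differed by −1.52 for the most abundant copy of each species (limma adjusted p = 0.0265). The snail Mlc1 row of that comparison is 1 of 2 copies with opposite chamber differences, and the summed copies gave 0.67.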

How the results depend on the processing

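The 2 scallop rows past the threshold toward the atrium became 1 without the methyltransferase and kinase rows (a setting chosen after seeing the data), 1 with a replicate block, and 1 or 2 without 1 library. The count toward the ventricle, 18 as deposited, was 4 after TMM scaling, 6 under quantile normalization (3 of the 18 and 3 others), 0 with equal ribosomal medians, and 6 to 16 without 1 library (6 without atrium 1 or 2, 9 without atrium 3, 10 without ventricle 2). In snail 2 atrial and 13 ventricular calls became 1 and 8 under quantile normalization, and 2 to 3 and 9 to 14 without 1 library. Species differences in 2 symbols became 1 with summed copies, and 1 or 2 without 1 library. The cause was not tested.

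With equal ribosomal medians the direction turned for TNNI1 (0.006), TNNT2 (0.10), PDLIM4 (0.21), PRMT8 (0.21), CAPZA2 (0.19), CAPZB (0.30), MYL6 (0.13), unc-22 (0.24), ACTB Miz0185270.1 (0.21), ACTB Miz0269600.1 (0.13) and TPMT Miz0037240.1 (0.027) and Miz0037260.1 (0.34), and under quantile normalization for PRMT8 (0.07). Species differences that did not pass turned for TPMT (−0.12 after TMM scaling, −1.08 under quantile normalization, −0.20 to 0.439 without 1 library), for CSRP1 (−0.095 under quantile normalization) and for unc-22 (−0.17 after TMM scaling, and −0.42 to 0.691 without 1 library). Mlc1 turned to 0.67 with summed copies. Over all settings, fits of single rows gave the same call 466 times, lost it 120 times, gained it 13 times and turned direction 13 times. A fit that turned direction was counted as turned only, so calls lost along with a turn are not among the 120.

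Same-numbered libraries did not deviate together in either species (correlations −0.16 to −0.12 in scallop and −0.09 to 0.06 in snail), so the replicate block was kept as an alternative setting. The block left 1 atrial and 17 ventricular scallop calls and 2 and 13 in snail. Ribosomal rescaling was not run for snail or between species. Low snail depth limits unc-22 rows.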
